A study of Rattus norvegicus with 9 samples.

Results

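Interleukin and TNF signaling was followed through 10 genes in the RNA of rat lumbar spinal cord: the ligands Il1b, Il6, Tnf, Il18, Il33 and Il10 and the receptor genes Il1r1, Il6r, Il6st and Tnfrsf1a. The rows of the expression table with these gene names were taken, and each name matched 1 locus, so that 10 of 34890 loci were used. RNA had been prepared from segments L3 to L6 of male wild-type Sprague Dawley rats, with 3 samples in each of 3 groups. The JA group had a sham operation and received normal saline by mouth. The SNI group had a spared nerve injury, in which 2 branches of the sciatic nerve, the tibial and the common peroneal, are tied and cut and the sural branch is left, and also received saline. The PLM group had the same injury and received a paeoniflorin and liquiritin solution by mouth. Its labels give paeoniflorin at 20.65 mg/ml for every rat and liquiritin at 3.98, 3.99 and 3.100 mg/ml for replicates 1, 2 and 3. The methods of the study name a single liquiritin concentration for the whole group, so these label values are not read here as separate doses. Tissue of the injured side was taken, per the methods of the study, and its cells were not separated, so fewer cells of a type cannot be told apart from less RNA per cell.

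Interleukins and tumor necrosis factor (TNF) are secreted proteins with which immune cells and glia signal injury and inflammation. IL-1, IL-18 and IL-33 act through receptors of the IL-1 receptor family. IL-6 binds its own receptor and then gp130, the shared signaling chain encoded by Il6st, which works through JAK kinases and STAT3. TNF acts mainly through TNF receptor 1, encoded by Tnfrsf1a, which recruits adaptors and kinases that lead to NF-kB. In the spinal cord IL-1 beta, IL-6 and TNF are widely studied as amplifiers of pain after nerve injury, and IL-10 as an inhibitor of inflammation.

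The values are in TPM, a unit that divides reads by gene length and brings every sample to 1 common total, so that levels may be compared between genes. Read depth is lost in this unit, and counting error could therefore not be estimated. On this scale 6 of the 10 genes averaged 1 TPM or more across the 9 samples and could be tested. The other 4 genes, Il1b, Il6, Tnf and Il10, were under that level and were too low to judge. All 4 are ligands, while each of the 4 receptor genes was measurable. Il6st was the highest, with a mean of 21.3 TPM over 9 samples and a range from 14.6 to 27.1 TPM. Il33 followed at 17.9 TPM, Tnfrsf1a at 8.79 TPM, Il18 at 6.85 TPM, Il1r1 at 4.64 TPM and Il6r at 2.60 TPM. Il6st was above Il33 in 7 of 9 samples, and Tnfrsf1a was above Il18 in 7 of 9, so neither pair was separated beyond its spread. Il33 exceeded Tnfrsf1a in 9 of 9 samples, Il18 exceeded Il1r1 in 9 of 9 and Il1r1 exceeded Il6r in 9 of 9. Among the 15503 loci at or above this level, Il6st stood at percentile 70.6 and Il6r at percentile 17.7.

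**Figure D1:**
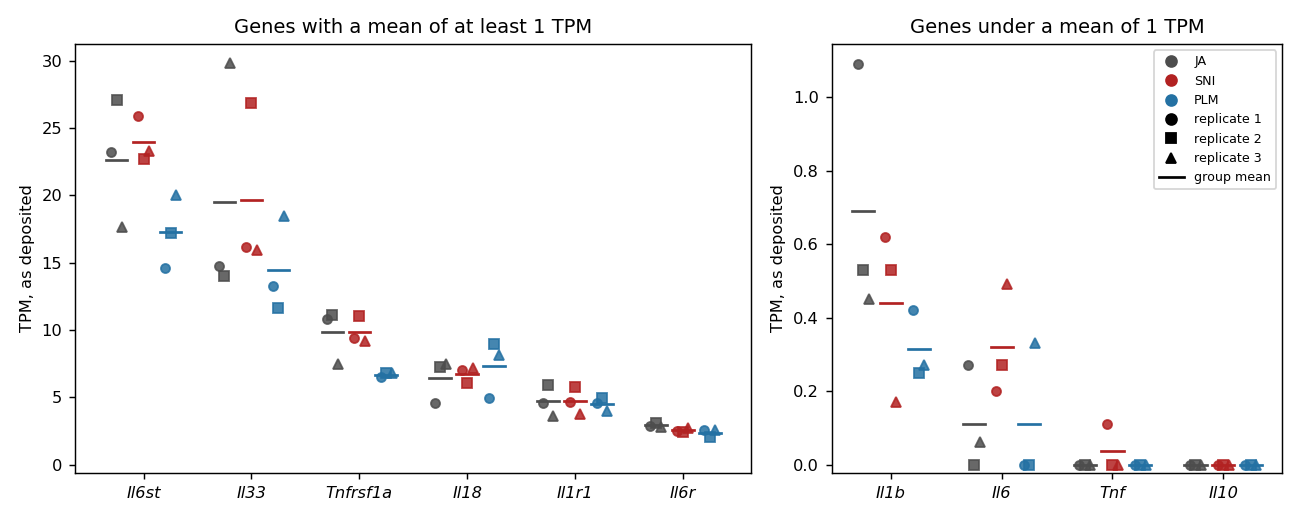
TPM as deposited (vertical axis) of each of the 10 genes in each sample, coloured by group and shaped by replicate number, with a line at the mean of 3 samples; genes under a mean of 1 TPM are on their own axis. The 3 PLM samples of Tnfrsf1a sit between 6.51 and 6.77 TPM, below all SNI samples, while Il10 lies at 0 throughout.

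The libraries differed in ways that touch these genes. The 13 mitochondrial protein genes held 25.3 to 32.8% of TPM in JA, 23.7 to 26.1% in SNI and 31.3 to 32.8% in PLM, and because every sample has the same total each such share lowers the values of the other loci. Each comparison of the 6 measurable genes is therefore given as deposited and median-centred, that is, after the median log2 level of each sample was set equal. Summed over 5 Schwann cell markers, which belong to peripheral nerve and root, TPM ranged from 61.4 to 6388 in JA, from 421 to 3607 in SNI and from 185 to 2669 in PLM. Summed over 9 astrocyte markers TPM ranged from 4087 to 6372 in JA, from 5348 to 6468 in SNI and from 2976 to 3537 in PLM. Summed over 7 oligodendrocyte markers TPM ranged from 47773 to 55192 in JA, from 45060 to 47289 in SNI and from 48873 to 50045 in PLM, where PLM was above SNI without overlap. Summed over 7 neuron markers it ranged from 1571 to 2887 in JA, from 2686 to 3417 in SNI and from 2474 to 2776 in PLM. Summed over 6 endothelium markers it ranged from 405 to 516 in JA, from 350 to 377 in SNI and from 377 to 437 in PLM, where SNI was below JA without overlap. No marker of any of these lists was at 0 in all samples. Summed over 5 red cell markers TPM ranged from 5387 to 11878 in JA, from 4118 to 7265 in SNI and from 7987 to 11178 in PLM, so that PLM and SNI did not overlap and PLM was the higher, although none of the 5 passed the adjusted threshold. Microglia markers, from the cells that make much of the IL-1 beta and TNF of the cord, summed to 364 to 453 TPM in JA, 362 to 392 in SNI and 355 to 397 in PLM.

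TNF receptor 1 was the 1 gene of the 10 that differed past the adjusted threshold between PLM and SNI. In SNI Tnfrsf1a (ENSRNOG00000031312) was at 9.43, 11.02 and 9.15 TPM, and in PLM it was at 6.51, 6.77 and 6.77 TPM. All 3 PLM samples lay below all 3 SNI samples. Its mean fell from 9.87 ± 1.01 to 6.68 ± 0.150 TPM (SD, n = 3), which is -0.50 (SE 0.09) as a log2 fold change of TPM + 1, with a 95% interval from -0.71 to -0.28 (adjusted p = 0.0254, limma with Benjamini-Hochberg adjustment over 15474 loci). The same test called 13.9% of all loci, and the loci lower in PLM alone were 13.6% of all loci, so 1 of 6 genes is close to that background, and 0.814% after centring. The median log2 fold change of all loci was -0.21. After median-centring the change of Tnfrsf1a was -0.25 with an interval from -0.46 to -0.04, and it no longer passed (unadjusted p = 0.0272, adjusted p = 0.230), although the PLM samples still did not overlap the SNI samples. Non-overlap toward lower PLM values was seen in 41.9% of all loci as deposited and 9.73% after centring. Leaving out 1 library also ended the call in 5 of 6 cases, with adjusted p between 0.0521 and 0.0954 without SNI replicate 1 or 3 or any PLM replicate and 0.0421 without SNI replicate 2.

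The first 300 bases around the start of Tnfrsf1a are shown because it is the gene of the 10 that was called, and those of Il6 because it carries a motif of the factor that TNF receptor 1 activates. Both windows run from 250 bases before to 50 after the start of the RefSeq gene on build GRCr8, Tnfrsf1a at chr4:159836869-159837168 on the plus strand and Il6 at chr4:5894526-5894825 on the minus strand, and capitals mark a match to the NF-kB motif.
Tnfrsf1a: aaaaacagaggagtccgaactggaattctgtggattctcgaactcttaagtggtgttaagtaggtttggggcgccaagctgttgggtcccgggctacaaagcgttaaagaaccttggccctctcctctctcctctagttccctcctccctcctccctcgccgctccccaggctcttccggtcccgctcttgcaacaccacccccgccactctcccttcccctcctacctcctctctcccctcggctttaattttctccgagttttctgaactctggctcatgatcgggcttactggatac
Il6: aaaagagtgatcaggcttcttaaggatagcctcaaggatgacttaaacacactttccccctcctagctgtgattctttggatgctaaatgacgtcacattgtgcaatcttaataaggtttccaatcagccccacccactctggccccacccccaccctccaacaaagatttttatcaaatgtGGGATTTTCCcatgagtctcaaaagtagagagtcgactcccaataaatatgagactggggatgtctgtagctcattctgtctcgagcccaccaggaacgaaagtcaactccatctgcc
A search of both strands for the NF-kB motif, the STAT motif TTCNNNGAA, the AP-1 motif TGANTCA and the TATA motif TATAAA found no match in the Tnfrsf1a window. The Il6 window held the NF-kB match GGGATTTTCC from position -68 to -59 before the start. Of the 10 genes 9 matched RefSeq, with 10 windows, as Il33 has 2 starts. Il1r1 held an NF-kB match from -135 to -126 and Il6st one from -1 to 9. The Il6st window reaches into the start of the coding sequence and may not be the promoter of that gene. Il1b, Tnf and the window 2 of Il33 held TATA matches, Il18 held an AP-1 match, and Il6r held none. Over all 33469 RefSeq windows of this length 7.51% held the NF-kB motif, 8.87% the STAT motif, 7.33% the AP-1 motif and 14.2% the TATA motif. A match describes letters in the window and is not evidence of binding.

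Tnfrsf1a showed the same order against the sham group. JA samples were at 10.85, 11.13 and 7.50 TPM, with a mean of 9.83 ± 2.02 (SD, n = 3), and every one lay above every PLM sample. PLM versus JA gave a log2 fold change of -0.48 (SE 0.15, unadjusted p = 0.0175, adjusted p = 0.370, limma) and -0.35 after centring (adjusted p = 0.494), so it missed the adjusted threshold. In that comparison 0.0195% of 15349 loci were called at all (0.013% after centring), and 15.7% had every PLM sample below every JA sample, or 6.93% after centring. JA and SNI overlapped, with a log2 fold change of 0.02 for SNI versus JA and an interval from -0.37 to 0.41, and -0.10 after centring.

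gp130, the signaling chain shared by the IL-6 family, came close to the threshold. Il6st (ENSRNOG00000013963) was at 25.89, 22.69 and 23.29 TPM in SNI and at 14.63, 17.21 and 20.07 TPM in PLM. The groups did not overlap, as in 41.9% of all loci toward lower PLM. The SNI mean was 24.0 ± 1.70 TPM and the PLM mean 17.3 ± 2.72 TPM (SD, n = 3). This is a log2 fold change of -0.46 (SE 0.12) with an interval from -0.75 to -0.17 (unadjusted p = 0.00809, adjusted p = 0.0533, limma). After centring it was -0.21 (adjusted p = 0.332) and the groups overlapped. The JA samples, at 23.26, 27.09 and 17.64 TPM, spread across both other groups. PLM versus JA gave -0.36 (adjusted p = 0.494) and -0.24 after centring, and SNI versus JA gave 0.09 (adjusted p = 0.814) and -0.03 after centring.

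The astrocyte markers differed between the same groups as Tnfrsf1a and Il6st. The 3 PLM samples had the 3 lowest astrocyte sums, and JA replicate 3, which had the next lowest sum at 4087 TPM, also had the lowest Tnfrsf1a (7.50 TPM) and the lowest Il6st (17.64 TPM) outside PLM. Outside PLM the order did not hold throughout. JA replicate 2 had the highest Tnfrsf1a (11.13 TPM) and Il6st (27.09 TPM) of the 9 samples, with an astrocyte sum of 5476 TPM. SNI replicate 1 had the highest sum, 6468 TPM, with Tnfrsf1a at 9.43 TPM. Within PLM the order did not hold for Il6st, since PLM replicate 3 had the lowest astrocyte sum, 2976 TPM, and the highest Il6st, 20.07 TPM, while PLM replicate 1 had the highest sum, 3537 TPM, and the lowest Il6st, 14.63 TPM. Tnfrsf1a spanned 6.51 to 6.77 TPM within PLM and did not follow the sums there. Of the 9 astrocyte markers 8 were lower in PLM than SNI at an adjusted p under 0.05, and 5 after centring. The part of astrocyte or blood content in the Tnfrsf1a and Il6st values was not tested.

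**Figure D2:**
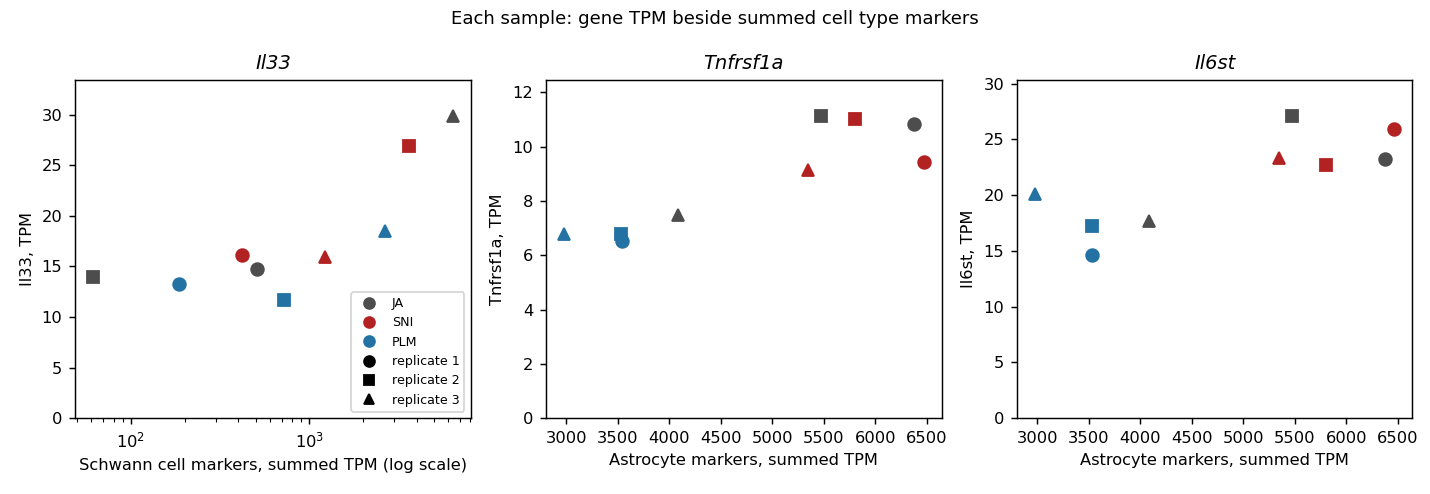
TPM of Il33 against the summed TPM of 5 Schwann cell markers (log axis), and TPM of Tnfrsf1a and Il6st against the summed TPM of 9 astrocyte markers, 1 point for each of 9 samples. The samples with the 3 highest Il33 values, 29.87, 26.88 and 18.48 TPM, are those with the 3 highest Schwann sums, and the PLM samples lie at the low end of the astrocyte sums.

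Il33, an alarmin that cells release when damaged and that glia of the cord express, varied most among the 6 measurable genes. Il33 (ENSRNOG00000016456) was at 14.76, 13.98 and 29.87 TPM in JA, at 16.15, 26.88 and 15.94 TPM in SNI and at 13.27, 11.65 and 18.48 TPM in PLM. In each group 1 sample stood above the other 2, and the highest of the 9 samples was 2.56 times the lowest. The high samples were JA replicate 3, SNI replicate 2 and PLM replicate 3, which also had the highest Schwann marker sum of their groups, at 6388, 3607 and 2669 TPM. The same samples had the highest sum of fibroblast and meninges markers in their groups, at 335, 217 and 109 TPM, and of red cell markers, at 11878, 7265 and 11178 TPM. The part of these tissues in the Il33 values was not tested. Group means were 19.5 ± 8.96, 19.7 ± 6.26 and 14.5 ± 3.57 TPM for JA, SNI and PLM (SD, n = 3). PLM versus SNI gave a log2 fold change of -0.40 with an interval from -0.99 to 0.18 (adjusted p = 0.265, limma), and SNI versus JA gave 0.05 with an interval from -0.73 to 0.83 (adjusted p = 0.955). After centring PLM versus SNI was -0.15 (adjusted p = 0.788), SNI versus JA -0.07 (adjusted p = 0.983) and PLM versus JA -0.23 (adjusted p = 0.831). Without those 3 samples PLM versus SNI was -0.34 (SE 0.10, adjusted p = 0.107), an alternative chosen after the data had been seen. Over its 15 alternatives the PLM versus SNI value ran from -0.58 to -0.15, and none passed the adjusted threshold. Without JA replicate 3 alone, SNI versus JA became 0.39 and PLM versus JA -0.01, against -0.35 with all samples. The receptor of IL-33, Il1rl1, was listed at group means of 0.463, 0.427 and 0.490 TPM in JA, SNI and PLM and was too low to test.

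Il18, the cytokine that the inflammasome releases from its precursor, was measured without a call in any comparison. Il18 (ENSRNOG00000009848) was at 4.60, 7.25 and 7.46 TPM in JA, 7.02, 6.04 and 7.21 TPM in SNI and 4.92, 8.99 and 8.12 TPM in PLM. The groups overlapped, with JA replicate 1 and PLM replicate 1 the lowest samples. PLM versus SNI gave 0.07 with an interval from -0.42 to 0.56 (adjusted p = 0.809, limma) and 0.32 after centring (adjusted p = 0.432). SNI versus JA gave 0.08 (adjusted p = 0.862) and -0.04 after centring, and PLM versus JA gave 0.15 (adjusted p = 0.827) and 0.28 after centring. The receptor chains of IL-18, Il18r1 and Il18rap, were at most 0.0667 TPM as group means.

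Il1r1, the receptor through which IL-1 beta signals, had nearly equal group means. Il1r1 (ENSRNOG00000014504) was at 4.59, 5.89 and 3.63 TPM in JA, 4.63, 5.78 and 3.76 TPM in SNI and 4.56, 4.93 and 3.97 TPM in PLM. The groups overlapped fully. Means were 4.70 ± 1.13, 4.72 ± 1.01 and 4.49 ± 0.484 TPM (SD, n = 3). PLM versus SNI gave a log2 fold change of -0.05 with an interval from -0.41 to 0.32 (adjusted p = 0.826, limma), and 0.20 after centring (adjusted p = 0.571). SNI versus JA gave 0.01 (adjusted p = 0.987) and -0.11 after centring, and PLM versus JA gave -0.04 (adjusted p = 0.943) and 0.08 after centring.

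Il6r, the chain that binds IL-6, was the lowest of the receptor genes among the 10. Il6r (ENSRNOG00000020811) was at 2.87, 3.08 and 2.77 TPM in JA, 2.51, 2.41 and 2.68 TPM in SNI and 2.55, 2.03 and 2.54 TPM in PLM. All 3 sham samples were above all 6 samples of injured rats, the closest values being 2.77 and 2.68 TPM. The difference did not pass the test. SNI versus JA gave a log2 fold change of -0.14 (SE 0.12, unadjusted p = 0.278, adjusted p = 0.663, limma), and PLM versus JA gave -0.21 (unadjusted p = 0.146, adjusted p = 0.565). Every SNI sample lay below every JA sample in 1.66% of 15557 loci as deposited and in 6.87% after centring. For PLM below JA the shares were 15.7% of 15349 loci and 6.93%. After centring Il6r gave -0.27 for SNI versus JA (unadjusted p = 0.0583, adjusted p = 0.889), still without overlap, and -0.09 for PLM versus JA, where the groups then overlapped. PLM versus SNI gave -0.07 (adjusted p = 0.686) and 0.18 after centring (adjusted p = 0.518).

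Il1b, Il6, Tnf and Il10 were at or near 0. Il1b (ENSRNOG00000004649), the main IL-1 ligand, was at 1.09, 0.53 and 0.45 TPM in JA, 0.62, 0.53 and 0.17 TPM in SNI and 0.42, 0.25 and 0.27 TPM in PLM. All PLM samples were below all JA samples, by 0.42 against 0.45 TPM at the closest, and SNI overlapped both. Among the 15349 loci high enough to test, 15.7% had every PLM sample below every JA sample. In a fit without the filter on low values PLM versus JA gave -0.35 (unadjusted p = 0.0637, adjusted p = 0.540, limma). Il6 (ENSRNOG00000010278) was at 0.27, 0 and 0.06 TPM in JA, 0.20, 0.27 and 0.49 TPM in SNI and 0, 0 and 0.33 TPM in PLM. Its groups overlapped, and without the filter SNI versus JA gave 0.25 (unadjusted p = 0.0844, adjusted p = 0.704). Tnf (ENSRNOG00000000837) was listed at 0 in 8 of 9 samples and at 0.11 TPM in SNI replicate 1. That sample also had the highest sum of 9 neutrophil and lymphocyte markers, 147.7 TPM, against 21.8 to 84.8 TPM in the others, and their part in the Tnf value was not tested. Il10 (ENSRNOG00000004647), the inhibitor of the group, was listed at 0 in all 9 samples. At these levels neither a difference nor its absence can be read from the table.

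None of the 6 measurable genes was called for nerve injury alone, nor was any other locus. This does not show that the genes were unchanged. In SNI versus JA no locus of 15557 passed an adjusted p under 0.05 in limma (0% called), while 1104, or 7.1%, had an unadjusted p under 0.05, and 0 of the 6 genes were among them. The 6 log2 fold changes lay between -0.14 and 0.09 with a median of 0.04, against 0.12 over all loci. As deposited 1 of 6 was below 0, against 23.6% of all loci, and after centring 6 of 6 were, against 51.4%, with a median of -0.09, so the direction depends on the scaling. In PLM versus SNI 5 of 6 were below 0 as deposited, against 85% of all loci, and 3 of 6 after centring, against 42.4%. Their median was -0.24 as deposited and 0.01 after centring, beside -0.21 and 0.04 over all loci. In PLM versus JA 5 of 6 were below 0, against 71.2% of all loci, with a median of -0.28 against -0.10, and 4 of 6 after centring, against 43.7%. No gene of the 10 had an absolute log2 fold change above 1 with an unadjusted p under 0.05, the thresholds of the study, which 1.65% of loci passed in PLM versus SNI, 0.688% in SNI versus JA and 0.938% in PLM versus JA. The comparisons with JA and with SNI share samples, so they are not independent of each other.

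**Figure D3:**
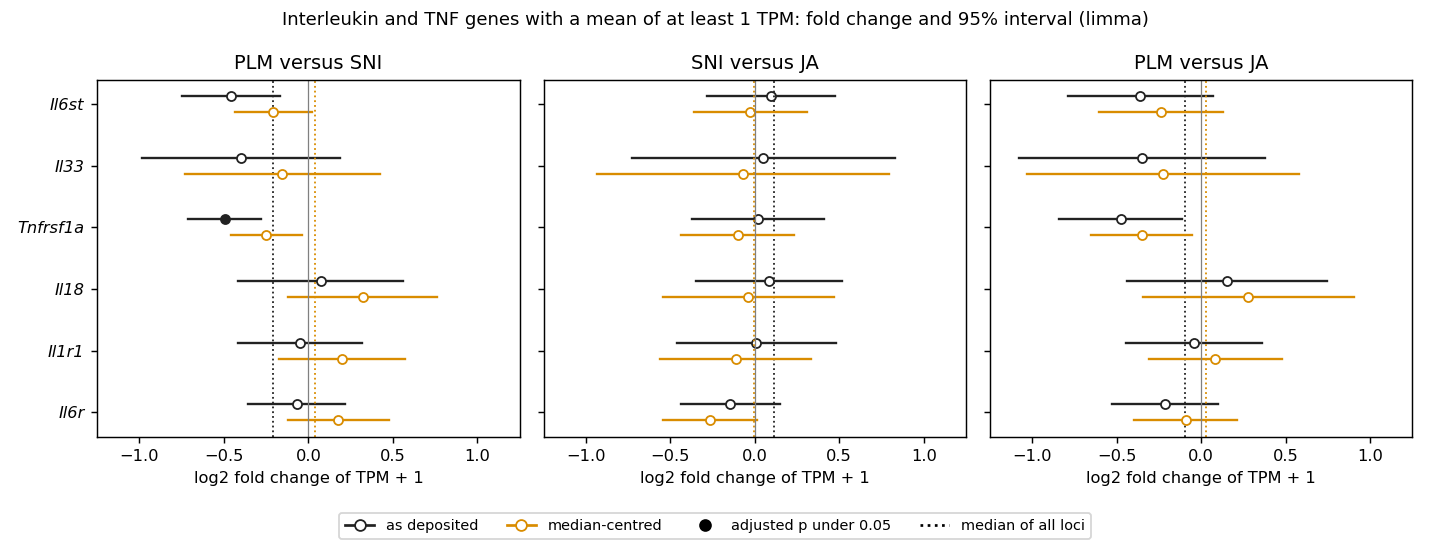
Log2 fold change of TPM + 1 (horizontal axis) with its 95% interval from limma for the 6 measurable genes, in 3 comparisons, as deposited and median-centred; filled points have an adjusted p under 0.05 and dotted lines mark the median of all loci. Tnfrsf1a in PLM versus SNI, at -0.50, is the single filled point, and its centred value of -0.25 is open.

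The wider pathways were read from 8 gene lists. In PLM versus SNI 9 of their 77 measurable genes, or 11.7%, were lower at an adjusted p under 0.05 and none was higher, which is under the 13.6% of all loci that were lower by the same test. The list of IL-6 family ligands and receptors had 6 of 11 genes measurable, with 6 of 6 below 0, against 85% of all loci, a median of -0.35 against -0.21 for all loci, and 1 call. After centring 5 of 6 were below 0, against 42.4% of all loci, with a median of -0.10 against 0.04 and no call. Cntfr, the receptor of ciliary neurotrophic factor, was at 38.43, 30.36 and 34.42 TPM in SNI and 20.69, 19.42 and 16.49 TPM in PLM. The fold change on the log2 scale was -0.83 (adjusted p = 0.0147) and -0.59 after centring (adjusted p = 0.113), and it was not past the threshold without SNI replicate 1 or PLM replicate 2. Cntfr in sham, at 36.18, 22.84 and 18.66 TPM, overlapped both.

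Of the JAK and STAT transducers and their feedback genes, which relay gp130, 10 of 10 were measurable, 8 were below 0 in PLM versus SNI, against 85% of all loci, and 2 were lower at an adjusted p under 0.05. After centring 4 of 10 were below 0, against 42.4% of all loci, and none was called. Stat3, the main factor downstream of gp130, was at 23.81, 22.77 and 24.22 TPM in SNI. In PLM it was at 14.88, 15.48 and 18.39 TPM, without overlap, as in 41.9% of all loci toward lower PLM. In log2 terms this was -0.52 (adjusted p = 0.0245, limma) and -0.27 after centring (adjusted p = 0.166). The kinase gene Jak1 fell from 45.1 to 35.9 TPM (-0.32, adjusted p = 0.0385). The list median was -0.22, close to that of all loci. After centring Jak1 was at -0.07 (adjusted p = 0.607). In the other direction Ptpn11, which encodes the phosphatase SHP2 of this pathway, was at 182.24, 181.29 and 190.77 TPM in SNI and 217.55, 199.35 and 224.02 TPM in PLM. Its groups did not overlap, as in 1.59% of all loci toward higher PLM, and its log2 fold change was 0.21 (adjusted p = 0.0700) and 0.45 after centring (adjusted p = 0.0624), so that it missed the threshold on both scales. With 1 library left out Stat3 lost its call in 4 of 6 cases, without SNI replicate 1 or 3 or PLM replicate 1 or 2, and Jak1 in 6 of 6.

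On the TNF side 8 of 10 measurable ligands and receptors and 16 of 19 measurable transducers were below 0 in PLM versus SNI, against 85% of all loci, and 1 and 2 of them were lower at an adjusted p under 0.05. After centring 5 of 10 and 6 of 19 were below 0, against 42.4% of all loci, and none was called. Ripk1, the kinase that TNF receptor 1 recruits, was at 8.04, 9.34 and 6.80 TPM in SNI and 3.79, 3.59 and 4.08 TPM in PLM. The log2 difference was -0.90 (SE 0.12, adjusted p = 0.0137, limma) and -0.65 after centring (adjusted p = 0.0749). It was not past the threshold without SNI replicate 1, PLM replicate 1 or PLM replicate 2. In sham Ripk1 was at 4.71, 3.69 and 5.18 TPM, below every SNI sample, as was the case for 12.1% of all loci, with a log2 fold change of 0.71 for SNI versus JA (0.59 after centring) that did not pass the adjusted threshold (unadjusted p = 0.00299, adjusted p = 0.614). Nfkb1, a subunit of NF-kB, fell from 10.7 to 7.78 TPM (-0.42, adjusted p = 0.0481), and Tnfrsf21, the death receptor 6 gene, from 38.7 to 28.2 TPM (-0.44, adjusted p = 0.0373). After centring Nfkb1 was at -0.17 (adjusted p = 0.414) and Tnfrsf21 at -0.19 (adjusted p = 0.353). With 1 library left out Nfkb1 lost its call in 6 of 6 cases and Tnfrsf21 in 5 of 6, all but without SNI replicate 2.

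The IL-1 family list, with 4 of 11 genes measurable, held no call in PLM versus SNI. Il1rap, the accessory chain that Il1r1 and Il1rl1 need, was at 18.04, 19.60 and 15.75 TPM in SNI and 13.36, 14.61 and 12.90 TPM in PLM (-0.36, adjusted p = 0.0562, limma), and at -0.11 after centring (adjusted p = 0.613). Sigirr, an inhibitory receptor of the family, was at 1.97, 2.23 and 1.94 TPM in SNI and 2.35, 2.61 and 3.64 TPM in PLM (0.33, adjusted p = 0.170), and at 0.58 after centring (adjusted p = 0.123). Among the inflammasome and Toll-IL-1 transducers 1 of 12 measurable genes passed, where 13.6% of all loci did in the same direction. This was Tab1, an activator of the TAK1 kinase, which fell from 14.5 to 11.2 TPM (-0.34, adjusted p = 0.0274). The list of IL-10 and other interleukins had 2 calls among 8 measurable genes, against the same share, the IL-17 receptor Il17ra (-0.31, adjusted p = 0.0484) and the microglial growth factor Csf1 (-0.49, adjusted p = 0.0492). None of these 3 passed after centring, where Tab1 was at -0.10, Il17ra at -0.06 and Csf1 at -0.24. With 1 library left out Il17ra lost its call in 6 of 6 cases, Tab1 in 5 of 6, all but without SNI replicate 2, and Csf1 in 5 of 6, all but without PLM replicate 3. The receptor chains of IL-10, Il10ra and Il10rb, were measurable at 4.25 to 4.54 and 4.65 to 5.69 TPM as group means, although their ligand was listed at 0.

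The list of NF-kB and STAT3 target genes held no call in PLM versus SNI. Of 8 measurable target genes none passed the adjusted threshold, where 13.9% of all loci did in either direction. As deposited 4 were below 0, against 85% of all loci, and after centring 3 were, against 42.4%. The median was 0.01 against -0.21 for all loci, or 0.25 against 0.04 after centring. The adhesion molecule gene Vcam1 was at 11.57, 11.48 and 7.54 TPM in SNI and 5.97, 6.33 and 6.23 TPM in PLM (-0.62, adjusted p = 0.0507, limma, and -0.37 with adjusted p = 0.284 after centring). The chemokine gene Cxcl10 gave 0.11 (adjusted p = 0.658) and 0.36 after centring (adjusted p = 0.414). In SNI versus JA and in PLM versus JA no gene of the 8 lists passed an adjusted p under 0.05.

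**Figure D4:**
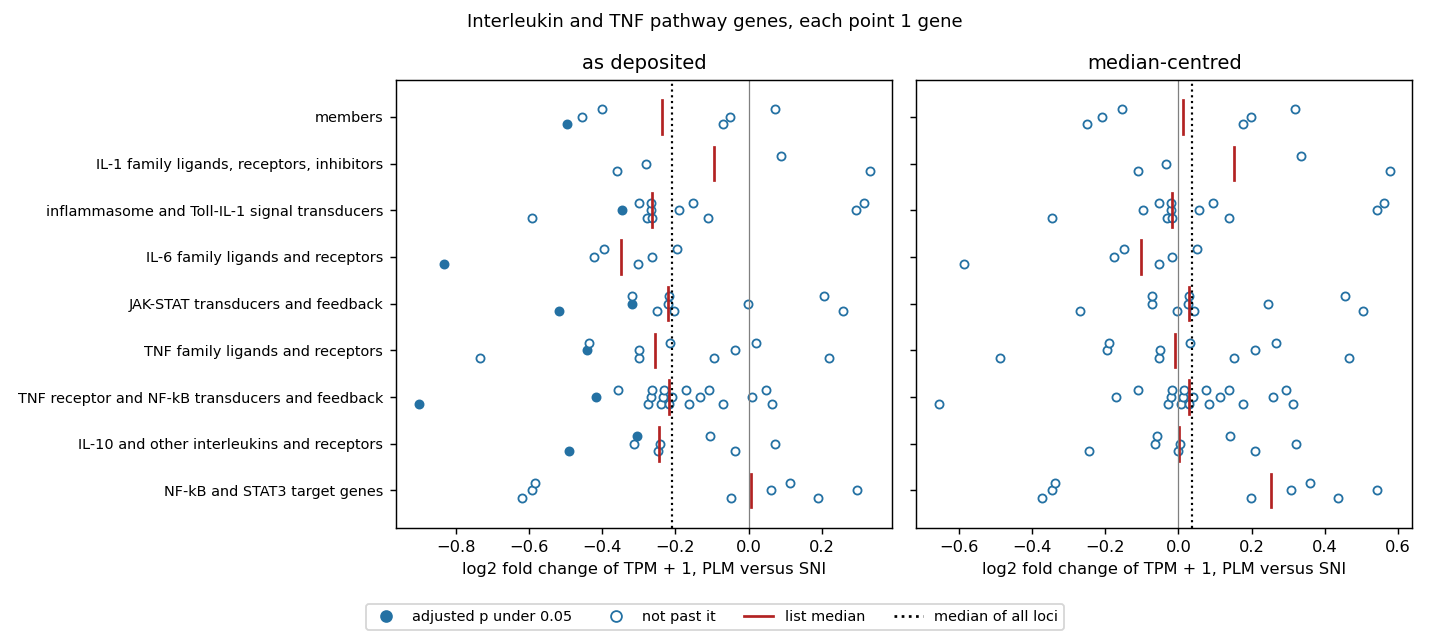
Log2 fold change of TPM + 1 in PLM versus SNI (horizontal axis) for each measurable gene of the 10 genes (top row, labelled members) and of 8 pathway lists, as deposited and median-centred; filled points have an adjusted p under 0.05 in limma, red bars are list medians and the dotted line is the median of all loci. As deposited the filled points all lie below 0, and after centring no point is filled.

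Across the 9 samples the 6 measurable genes did not vary as 1 block. On median-centred log2 values Pearson's r of the 15 pairs ran from -0.55 for Il18 and Tnfrsf1a to 0.70 for Il6st and Tnfrsf1a, over samples that share their groups and marker content. The loci most like each gene were found by the same measure over 9 samples. The highest 3 are named, among those of the 15503 loci that carry a gene symbol. For Il33 they were Emid1 (r = 0.973), Thbs4 (0.969) and the collagen gene Col5a3 (0.968). For Tnfrsf1a they were Hacd2 (0.983), Lix1l (0.980) and LOC306766 (0.965), and for Il6st Mief1 (0.946), Dlx5 (0.946) and Actl6a (0.943). Il1r1 was most like Zfand2a (0.985), Depdc1b (0.957) and Ift88 (0.954), Il6r like Toe1 (0.962), Ssrp1 (0.944) and Tgfb1 (0.943), and Il18 like Pigf (0.930), Ercc5 (0.921) and Wdr53 (0.918). These values are descriptions over few samples.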

How the data were processed

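RNA of 9 rat spinal cord samples was read from 1 deposited table. Per the paper's methods, the authors cleaned reads, mapped them with HISAT2 and computed expression with StringTie; the submitters' processing notes name CASAVA, fastp 0.19.5, StringTie and the human build GRCh38.p13, although the identifiers are of rat, so the build of the table is not given in the sources used here. The authors deposited TPM, rounded to 2 decimals. Of 34890 loci 32883 carry Ensembl identifiers. TPM keeps no depth, so DESeq2, which the authors used, was not run.

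Groups were compared in pairs on log2(TPM + 1) with limma 3.58.1 in R 4.3.3, with a variance trend, on loci averaging 1 TPM or more in the 6 samples, and p-values were adjusted over all of them. Fold changes on this scale understate those of low genes. Code was tested on simulated data. The labels call samples biological replicates, and p-values measure the spread between them. Alternatives were other scalings, filters and pseudocounts, 1 fit to 9 samples, a replicate block and leaving out samples. Named were all 10 genes, up to 4 genes per pathway list with the smallest p among those at an adjusted p under 0.05, any past both thresholds, and the 3 loci most like each gene; Il1rap, Sigirr, Ptpn11, Vcam1, Cxcl10 and the receptors of the ligands were named after their values were seen. The 10 genes and all lists were chosen with earlier results of these data known. Promoters are from RefSeq (GRCr8). Results for 2 genes of the lists are not reported here.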

Additional observations from a re-analysis of the deposited data

How the results depend on the processing

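For PLM versus SNI 1 of the 10 genes, Tnfrsf1a, was at an adjusted p under 0.05. The number was 0 after median-centring, rescaling without the mitochondrial protein genes, quantile normalization, 1 fit to all 9 samples, and leaving out the library with the highest Schwann marker sum of each group (chosen after the data had been seen). It was 2 with a filter at a mean of 5 TPM, where Il6st also passed (adjusted p = 0.0385), and between 0 and 1 with 1 sample left out. Tnfrsf1a kept its direction under all 15 alternatives, from -0.55 to -0.25, with adjusted p from 0.0215 to 0.237. The cause of these differences was not tested, except that a filter changes the number of loci tested. With the replicate number as a block the number was 0 in PLM versus SNI (Tnfrsf1a adjusted p = 0.112, limma). Same-numbered deviations correlated at 0.03, -0.02 and -0.01. No strong pairing by number was seen, but so few samples cannot exclude one. In SNI versus JA and PLM versus JA the number was 0 under every alternative run.

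Changes of sign concerned log2 fold changes that no test had called. With median-centring, rescaling and quantile normalization in that order, Il1r1 in PLM versus SNI became 0.20, 0.076 and 0.19, Il6r 0.18, 0.038 and 0.13, and Il1r1 in PLM versus JA 0.083, 0.0069 and 0.081. In SNI versus JA, Il33 became -0.071, -0.035 and -0.066, Il1r1 -0.11, -0.069 and -0.11, Tnfrsf1a -0.10, -0.064 and -0.10, and with centring and quantile normalization Il18 -0.039 and -0.038 and Il6st -0.027 and -0.034. Without the highest Schwann library of each group Il18 in PLM versus SNI was -0.077 and Il1r1 0.15, and in SNI versus JA Il1r1 was -0.26, Il6st -0.031 and Tnfrsf1a -0.22.
With 1 sample left out in turn, the PLM versus SNI values ran from -0.075 to 0.30 for Il18, -0.18 to 0.080 for Il1r1 and -0.11 to 0.0055 for Il6r. The SNI versus JA values ran from -0.11 to 0.19 for Il18, -0.19 to 0.39 for Il33, -0.13 to 0.15 for Il1r1, -0.067 to 0.23 for Il6st and -0.15 to 0.11 for Tnfrsf1a, and the PLM versus JA values from -0.037 to 0.38 for Il18 and -0.18 to 0.11 for Il1r1. Signs turned without SNI replicate 2 or PLM replicate 2 or 3 in the first comparison, without any JA replicate or SNI replicate 2 in the second, and without JA replicate 1 or 2 or PLM replicate 3 in the last. Of the 9 pathway genes called in PLM versus SNI, each kept its direction under its 15 alternatives, but Ripk1 and Cntfr stayed past the threshold in only 8 of them, Stat3 in 5, Tab1 in 4, Tnfrsf21 and Csf1 in 3, and Jak1, Nfkb1 and Il17ra in 2. With 3 samples a group and no depth, small differences and genes under 1 TPM cannot be resolved.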

Other observations

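Apart from the 10 genes, 2 of 8 measurable target genes of NF-kB and STAT3 had every SNI sample below every sham sample, as did 1.66% of all loci as deposited and 6.87% after centring, and they were chosen after their values were seen. Cxcl10, an interferon-induced chemokine gene, was at 4.17, 4.76 and 4.07 TPM in JA and 2.15, 2.96 and 2.46 TPM in SNI, a log2 fold change of -0.60, or -0.72 after centring (unadjusted p = 0.00377, adjusted p = 0.614, limma). Lcn2, which encodes the iron carrier lipocalin-2, was at 11.56, 7.81 and 7.21 TPM in JA and 6.69, 3.82 and 4.29 TPM in SNI, a log2 fold change of -0.74, or -0.86 after centring (unadjusted p = 0.0169, adjusted p = 0.614). Neither passed the adjusted threshold, which no locus did in this comparison, and PLM overlapped SNI for both genes.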
